A study of Bos taurus with 14 samples.

Results

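The 7 sarcomeric myosin heavy chain genes MYH1, MYH2, MYH3, MYH4, MYH7, MYH7B and MYH8 were followed in bovine back muscle. They were picked by gene symbol from a table of 18078 genes, in which each of these symbols stood on 1 row, and all 7 passed the filter on low counts that left 12187 genes for testing. RNA was sequenced from the longissimus dorsi of 14 female cattle aged 485 days. The dams of 7 animals were fed their full nutrient requirement (100%) from day 158 of gestation to birth and are called control. The dams of the other 7 were fed less over the same period and are called restricted; the series design gives 70% and the treatment protocol gives 50%, so no level is stated here. All offspring were kept alike from birth and had free access to feed from day 301. Each library was taken as 1 animal, and the labels do not say which animals share a sire or a dam.

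Myosin heavy chain is the motor of the thick filament, and the isoform a fibre makes largely sets its contraction speed. In adult limb and trunk muscle, MYH7 encodes the slow (type I) chain, MYH2 the fast oxidative IIa chain, MYH1 the fast IIx chain and MYH4 the fast glycolytic IIb chain. MYH3 encodes the embryonic and MYH8 the perinatal chain, which are replaced after birth, return in regenerating fibres and persist in the intrafusal fibres of muscle spindles. MYH7B is an old member of the slow and cardiac branch that is made at low levels and whose gene hosts a microRNA of slow muscle. In the RefSeq gene table of the assembly ARS-UCD2.0, where all 7 symbols were found, MYH8, MYH4, MYH1, MYH2 and MYH3 follow each other as neighbours, and MYH7 lies beside the cardiac gene MYH6. The reads had been aligned to another assembly, so no coordinates are given, and no sequences are shown.

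The table lists MYH1 as ENSBTAG00000018204, MYH2 as ENSBTAG00000007090, MYH4 as ENSBTAG00000037794, MYH7 as ENSBTAG00000009703, MYH7B as ENSBTAG00000003512, MYH3 as ENSBTAG00000011803 and MYH8 as ENSBTAG00000009702. Their gene lengths there are nearly alike, from 5865 bases for MYH4 to 6115 bases for MYH8.

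Total counts per animal ran from 13631018 to 17325779. Of 6 markers of skeletal muscle fibres, 5 were matched in the table and all were abundant, with ACTA1, the skeletal actin, at 34810 to 57340 CPM (counts per 1e6 of the scaled library). Libraries control 7, restricted 4 and restricted 7 stood apart in interferon response genes, whose summed level was 206.4 to 532.1 CPM there and 22.65 to 75.1 CPM in the other 11. Of the 15 tested genes of that list, 15 had a positive log2 fold change of restricted over control, beside 6061 of all 12187 tested genes. By edgeR 0 of the 15 passed. The highest sum was in restricted 7, and the genes share these libraries, so their signs are not separate results on diet. The part of this response in the myosin levels was not tested. Reads from 1 isoform can align to another because these genes are close paralogs. The counting of such reads is not stated in the labels, so the level of a scarce isoform beside an abundant one is uncertain. In bulk muscle, fewer fibres of a type and less RNA per fibre cannot be told apart.

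A set of 3 genes carried nearly all of the myosin heavy chain message: MYH1, MYH2 and MYH7 together made up 98.8% to 99.8% of the summed reads of the 7 genes in every animal. Scaled to gene length, MYH1 stood highest at 9257 ± 898 CPM per kilobase (SD, n = 14), followed by MYH2 at 2474 ± 603 and MYH7 at 1909 ± 430 CPM per kilobase. MYH1 lay above MYH2 in 14 of 14 animals, by 2.36 to 5.80 times, and their ranges did not overlap. MYH2 lay above MYH7 in 12 of 14 animals, by 0.984 to 2.09 times, with overlapping ranges. MYH4 lay 10.6 to 660 times below MYH7 within an animal.

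That lower tier held MYH4 at 37.6 ± 49.9 CPM per kilobase (SD, n = 14), MYH7B at 22.4 ± 6.22, MYH8 at 6.58 ± 3.71 and MYH3 at 5.28 ± 5.19 CPM per kilobase. MYH4 exceeded MYH7B in 5 of 14 animals and MYH8 exceeded MYH3 in 7 of 14, so neither of these neighbouring pairs has a fixed order. MYH7B lay above MYH8 in 14 of 14 animals, by 1.47 to 22.8 times. As the plot of levels by gene shows, MYH4, MYH3 and MYH8 were more widely spread on the log axis than MYH1, MYH2, MYH7 and MYH7B.

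**Figure D1:**
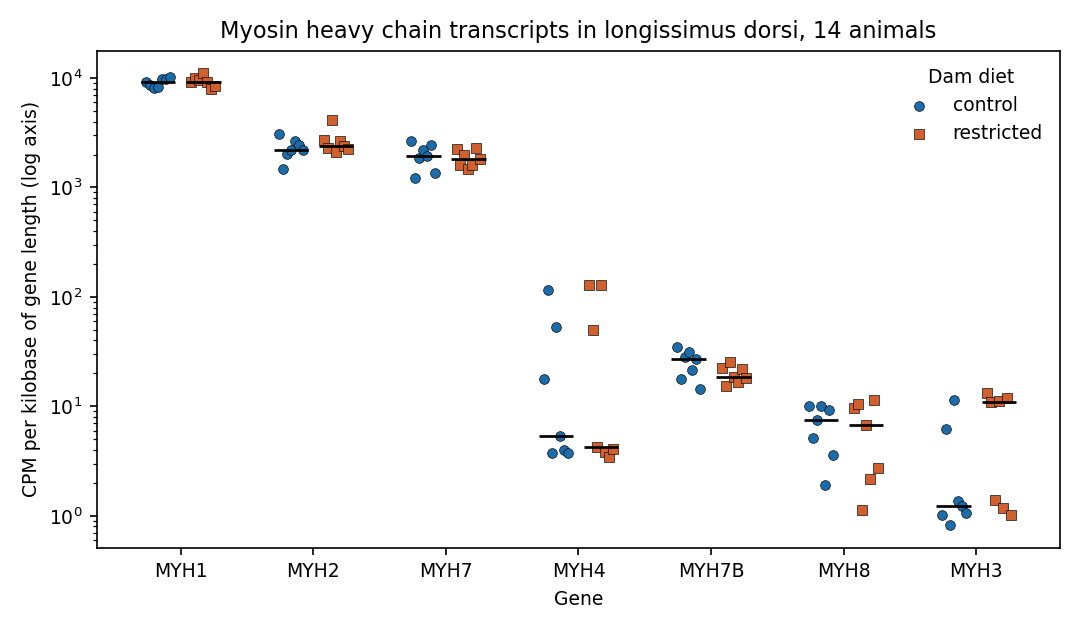
Level of each myosin heavy chain gene in CPM per kilobase of gene length (log axis), with 1 point per animal, circles for control and squares for restricted animals, and a line at the median of each group of 7. MYH1, MYH2 and MYH7 sit at 1225 to 11036 CPM per kilobase, and the other 4 genes at 0.821 to 129 CPM per kilobase.

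The spread between animals also differed by gene. The SD of log2 CPM was 0.14 for MYH1, 0.33 for both MYH2 and MYH7, and 0.39 for MYH7B, against a median of 0.23 over the 12187 tested genes. It was 2.20 for MYH4, 1.67 for MYH3 and 1.10 for MYH8, which ranked 14, 29 and 98 from the largest. Only 15.3% of tested genes had a smaller SD than MYH1. From the lowest to the highest animal the level rose 1.38 times for MYH1, 2.77 times for MYH2, 2.19 times for MYH7, 37.3 times for MYH4, 16.1 times for MYH3 and 10.2 times for MYH8. Scarce genes carry more counting error. MYH4 had at least 299 reads, MYH8 at least 106 and MYH3 at least 83 in every animal. The part of counting error in these spreads was not tested.

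The composition of the reads gave each animal a profile of adult isoforms. MYH1 took 67.7% ± 4.72 (SD, n = 14) of the summed reads of the 7 genes, from 61.2% in control 1 to 75.2% in control 2. MYH2 took 18.1% ± 3.12, from 13.1% in control 2 to 26.3% in restricted 3. MYH7 took 13.7% ± 2.91, from 9.71% in control 7 to 17.6% in restricted 6. Control 2, control 7 and restricted 4 had the largest MYH1 shares (73.9% to 75.2%) and the smallest MYH7 shares (9.71% to 10.5%). Each share depends on all 7 genes. In control 2 the MYH1 level was 52041 CPM, below the median of 55385 CPM over the 14 animals. Correcting for gene length left the mean shares at 67.6%, 17.9% and 13.9%. The 7 genes together held 8.25% ± 0.553 of all counts, with a range of 7.15% to 9.06%.

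**Figure D2:**
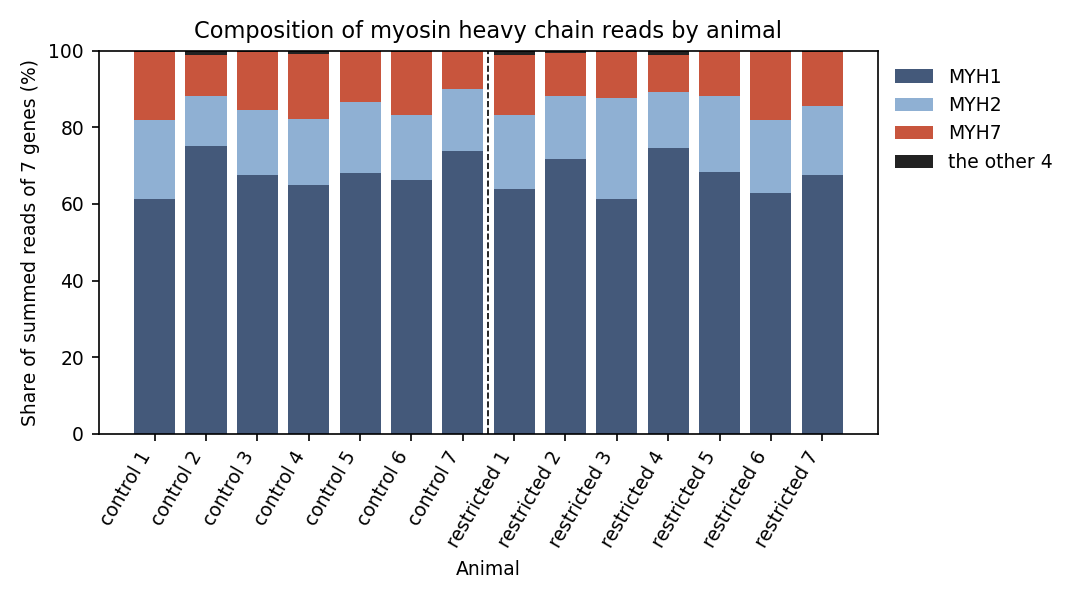
Stacked bars give each animal's share (%) of the summed reads of the 7 genes for MYH1, MYH2, MYH7 and the other 4 together, with controls left of the dashed line and restricted animals right of it. MYH1 fills 61.2% to 75.2% of every bar, and restricted 3 has the widest MYH2 band at 26.3%.

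The comparison of the dams' diets asked whether feeding in later gestation left a difference in adult isoform expression. No member passed edgeR's quasi-likelihood F test once p-values were adjusted (Benjamini-Hochberg) over all genes: 0 of 7 reached an adjusted p of 0.05, as did 0% of the 12187 genes, and each member had an adjusted p of 1.0 after rounding. At an unadjusted p under 0.05 there were 0 of 7 members and 4.25% of all genes. DESeq2 and limma's voom with sample quality weights called 0 members too. Over all genes they called 0.00821% and 0%. In CPM the 2 groups overlapped for 7 of 7 members, and 0.0574% of all genes had groups that did not overlap.

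Among the fast adult genes, MYH1 had a lowest, median and highest level of 48625, 55172 and 61537 CPM in the control group and 48344, 55598 and 66570 CPM in the restricted group. The ratio of restricted to control was 1.03 with a 95% interval of 0.901 to 1.17, the narrowest of the 7 genes. MYH2 stood at 9061, 13537 and 18723 CPM in the control group and at 12931, 14670 and 25059 CPM in the restricted group. Its ratio was 1.15 (0.911 to 1.46), and without restricted 3, the highest animal, the log2 fold change went from 0.20 to 0.06. The MYH2 share was 17.1% ± 2.33 in the control group and 19.1% ± 3.68 in the restricted group (SD, n = 7 each), a difference smaller than either SD. An SD between animals is not the error of a difference of means, and the shares were not tested.

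For MYH4 the median was 31.4 CPM in the control group and 25.0 CPM in the restricted group, whereas the means were 170 ± 246 and 271 ± 345 CPM (SD, n = 7 each). Median and mean thus pointed opposite ways. The fitted ratio was 1.59 with an interval of 0.370 to 6.84. Its log2 fold change of 0.67 became 0.15 without restricted 1, 0.16 without restricted 4 and 1.66 without control 2, the 3 animals with the most MYH4.

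Among the slow genes, MYH7 ran from 7261 over a median of 11542 to 15889 CPM in the control group and from 8664 over 10758 to 13565 CPM in the restricted group. The ratio was 0.946, with a 95% interval of the log2 fold change from -0.43 to 0.27, and the MYH7 share was 14.2% ± 3.18 in the control group and 13.2% ± 2.75 in the restricted group (SD, n = 7 each). MYH7B stood at 86.1, 162 and 208 CPM in the control group and at 92.0, 110 and 153 CPM in the restricted group. Its ratio of 0.789 (0.614 to 1.01) had the smallest unadjusted p of the members by edgeR, 0.0626. It stayed below 1 in all of its 24 alternative fits, with a log2 fold change from -0.44 to -0.24, and passed in none of them.

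Of the developmental genes, MYH3 had a median of 7.56 CPM in the control group and 66.6 CPM in the restricted group. The fitted ratio was 2.17 with an interval of 0.767 to 6.12 and an unadjusted p of 0.135 by edgeR. Both groups held animals at 5.01 to 8.56 CPM and animals at 66.6 CPM or more, and the log2 fold change of 1.12 became 1.88 without control 4. Among the 9 animals with titles ending in A it was 2.54 for MYH3 and 2.33 for MYH4, and with that letter as a term in the fit 1.53 and 1.33; the unadjusted p among titles ending in A was 0.00128 for MYH3 and 0.0419 for MYH4, and with the letter as a term 0.0301 and 0.171. The adjusted p was 1.0 after rounding in each of these edgeR fits. Among titles ending in A, only restricted 4 and restricted 6 had MYH3 above 8.56 CPM. MYH4 was at 751 CPM in restricted 4, at 105 CPM in control 1 and at 20.3 to 31.4 CPM in the rest of them. These differences thus rest on few animals. MYH8 stood at 11.7, 45.8 and 62.2 CPM in the control group and at 6.87, 41.3 and 70.1 CPM in the restricted group, a ratio of 0.931 (0.475 to 1.82). The plot of diet differences shows how much wider the intervals of MYH4, MYH3 and MYH8 were.

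**Figure D3:**
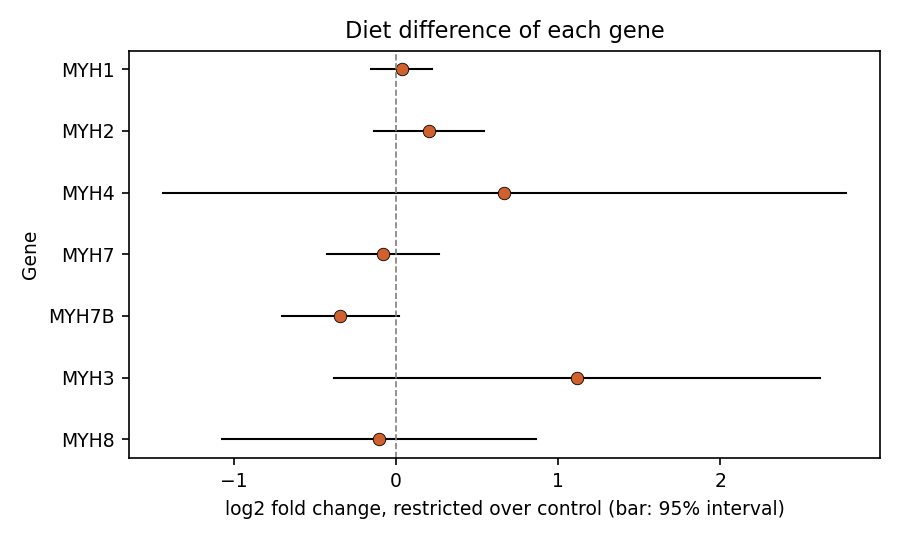
Log2 fold change of restricted over control offspring for each gene (points) with its 95% interval (bars) from the edgeR fit, 7 animals per group. Every bar crosses 0, and the bars run from -0.15 to 0.22 for MYH1 and from -1.43 to 2.77 for MYH4.

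MYH4 fell into separate levels across the animals. It was at 20.3 to 31.4 CPM in 8 animals and at 105 CPM in control 1. The remaining 5 stood at 294 CPM in restricted 2, 310 CPM in control 4, 675 CPM in control 2, 751 CPM in restricted 4 and 759 CPM in restricted 1. In the 8 low animals MYH4 had 0.0354% to 0.0527% as many reads as MYH1, and in restricted 1 it had 1.38%. Even at its highest, MYH4 was 0.976% of the summed reads of the 7 genes. In the 8 low animals Pearson's r of log2 MYH4 with log2 MYH1 was 0.496 (exact permutation p = 0.212, adjusted over 8 such relations 0.361; Spearman's rho 0.381, exact permutation p = 0.360). Without the 2 animals farthest from the MYH1 median, r was 0.151.

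MYH3 split the animals too. It was at 5.01 to 8.56 CPM in 8 animals, at 38.0 CPM in control 2, and between 66.6 and 80.8 CPM in control 4, restricted 1, restricted 2, restricted 4 and restricted 6. Of the 6 animals high in MYH3, 5 were also in the upper group for MYH4. Restricted 6 was high in MYH3 with the lowest MYH4 of all animals, 20.3 CPM, and control 1 had MYH4 at 105 CPM with MYH3 at 6.17 CPM. The remaining 7 animals were low in both, as the plot of MYH3 against MYH4 shows. The upper MYH4 group held 3 control and 3 restricted animals, and the upper MYH3 group 2 and 4. Because the values lie in separate clusters, no correlation of these genes with the other myosins over all 14 animals is given. In the 8 animals low in MYH3, its r with MYH1 was 0.749 (exact permutation p = 0.0315, adjusted 0.126; rho 0.667, exact permutation p = 0.0831) and that with MYH2 0.671 (exact permutation p = 0.0660, adjusted 0.176; rho 0.595, exact permutation p = 0.132). Without the 2 animals farthest from the median of MYH1 or MYH2 these were 0.261 and 0.120. The largest r within a cluster was that of MYH3 with MYH2 in its 6 high animals, at 0.970 (exact permutation p = 0.00972, adjusted 0.0778; rho 0.829, exact permutation p = 0.0583). It was 0.457 without the 2 animals farthest from the MYH2 median.

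**Figure D4:**
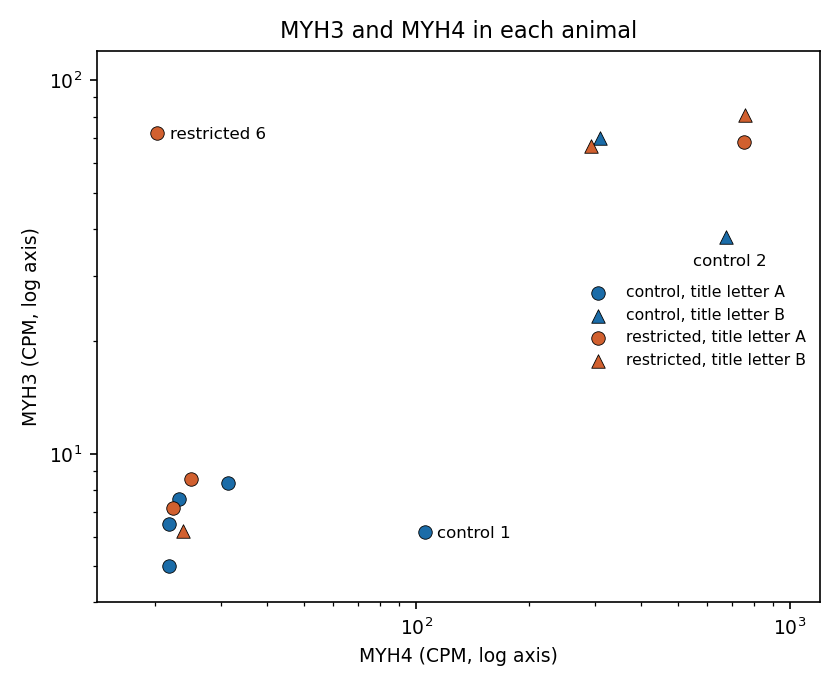
MYH3 against MYH4 in CPM (both axes log), 1 point per animal, coloured by dam diet, with the shape giving the last letter of the sample title. Animals low in both genes lie at the lower left, 5 animals lie at the upper right, and restricted 6 and control 1 are high in 1 gene only.

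The sample titles end in A (9 animals) or B (5 animals), letters whose meaning is not given in the labels. Of the 6 animals in the upper group for MYH4, 4 had titles ending in B, and the same count held for MYH3. The titles begin with R in 3 animals, of which 3 were in the upper group for MYH4 and 2 in that for MYH3, and with Y in 11, of which 3 and 4 were. With the first letter as a term in the edgeR fit, the log2 fold change of MYH4 between diets went from 0.67 to 1.16. What either letter stands for is not known, and its part in the levels was not tested. MYH8 showed no such gap: its largest step that left 2 or more animals on either side was 0.49 log2. It ran from 6.87 CPM in restricted 3 to 70.1 CPM in restricted 6. Of the 9 animals with MYH8 at 31.1 CPM or more, 6 were high in MYH3, and of the 5 animals at 22.2 CPM or less 0 were. The other 3 of the 9, control 1, control 3 and control 6, had 45.8 to 62.2 CPM of MYH8 with MYH3 at 5.01 to 7.56 CPM.

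The list of other developmental and regeneration genes was read beside these. Of its 17 genes, 13 were tested, 0 passed in either direction between diets and 9 had a positive log2 fold change, with a median of 0.14 against 0.00 over all tested genes. MYL4, the embryonic light chain, had 3 to 13 reads per animal, and CHRNG, the fetal acetylcholine receptor subunit, had 3 to 22 reads. MYMX, a fusion factor of myoblasts, had no read in 9 animals. These 3 and MYMK, another fusion factor with 1 to 12 reads, were named after their values were seen and lay below the filter. NCAM1, an adhesion molecule of nerve, satellite cells and denervated fibres, had the only unadjusted p under 0.05 of the list (0.00435 by edgeR, adjusted 1.0). It was at 11.8 ± 3.50 CPM in the control group and 19.2 ± 5.96 CPM in the restricted group (SD, n = 7 each). The most abundant members were SLN, an inhibitor of the calcium pump, at 2936 ± 571 CPM in the control group and 3236 ± 590 CPM in the restricted group, and CRYAB, a small heat shock protein, at 1224 ± 286 and 1233 ± 192 CPM (SD, n = 7 each). The 4 satellite cell markers summed to 13.4 to 19.8 CPM in the control group and 14.8 to 21.0 CPM in the restricted group, and their part in the MYH3 and MYH4 levels was not tested.

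Across the 14 animals, the slow genes MYH7 and MYH7B varied together. Pearson's r of their log2 CPM was 0.799 (permutation p = 0.00079, adjusted 0.0079 over the 10 pairs of the 5 genes without clusters) and Spearman's rho 0.807 (permutation p = 0.00097, adjusted 0.0097). Leaving out the 2 animals farthest from the MYH7 median, control 1 and control 2, gave r = 0.777 (permutation p = 0.00387). It was 0.880 within controls (n = 7, exact permutation p = 0.0115), 0.728 within the restricted group (n = 7, exact permutation p = 0.0744) and 0.852 among titles ending in A (n = 9, exact permutation p = 0.00451), while titles ending in B were too few. Without the 3 libraries high in interferon genes it was 0.752, and its adjusted permutation p of 0.0721 missed the threshold. MYH7B had 1370 to 3362 reads per animal, beside 124512 to 244324 for its paralog MYH7. The part of reads shared between these 2 genes in their r was not tested.

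No other pair passed. MYH2 and MYH7 came next, with r = 0.565 (permutation p = 0.0335, adjusted 0.167) and rho = 0.622 (permutation p = 0.0198, adjusted 0.0989). Without the 2 animals farthest from the MYH2 median, r was 0.545 (permutation p = 0.0672). It was 0.787 within controls, 0.380 within the restricted group and 0.390 among titles ending in A. Without restricted 3, whose MYH2 was far above the rest, r was 0.698 and the adjusted permutation p was 0.0287. MYH1 had r = -0.306 with MYH7 (rho -0.367; permutation p = 0.286 and 0.197, adjusted 0.377 and 0.394). Without restricted 4 and restricted 6, the 2 animals farthest from the MYH1 median, that r was -0.080, so the value rests largely on them. The remaining 7 pairs had r between -0.384 and 0.344 and adjusted permutation p-values of 0.377 to 0.424.

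The myosin genes were then set beside the genes that build the rest of each fibre type. Ranked over the 14 animals, MYH7 had a positive Spearman's rho with 14 of 14 slow fibre partners (slow light chains, troponins, tropomyosin and the slow calcium pump among them), with a median of 0.769. MYH7B did so with 14 of 14, with a median of 0.690, and the part of reads shared with MYH7 in this was not tested. MYH1 was positive with 14 of 14 fast fibre partners, with a median of 0.501, and with 1 of 14 slow partners (MYBPC1), with a median of -0.433. With library size scaling, MYH1 was positive with 11 of 14 fast partners. These signs of the medians were the same under the 3 other scalings of the libraries. Over all tested genes the median rho was -0.007 for MYH1 and 0.002 for MYH7, and 49.2% and 50.5% of genes were positive. These values are descriptions: the genes share libraries, depth and scaling.

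MYH2, a fast myosin by class, ranked with the slow partners, with rho positive for 14 of 14 and a median of 0.470. With the fast partners it was positive for 10 of 14 with a median of 0.055, which turned to -0.277 with library size scaling. Without the 3 interferon-high libraries it was positive for 14 of 14 fast partners (median 0.309) and 12 of 14 slow partners (median 0.382), so the medians lay much closer. Among titles ending in A the fast and slow medians were -0.208 and 0.358. The plot of rank correlations shows a higher median for slow than for fast partners with MYH2, the reverse of MYH1, with single partners of the 2 lists overlapping for both genes. Within controls the median rho of MYH2 was 0.196 with fast and 0.554 with slow partners, and within restricted animals -0.250 and 0.393. For MYH1 the slow medians were -0.214 and -0.536. The difference between MYH1 and MYH2 was not tested.

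**Figure D5:**
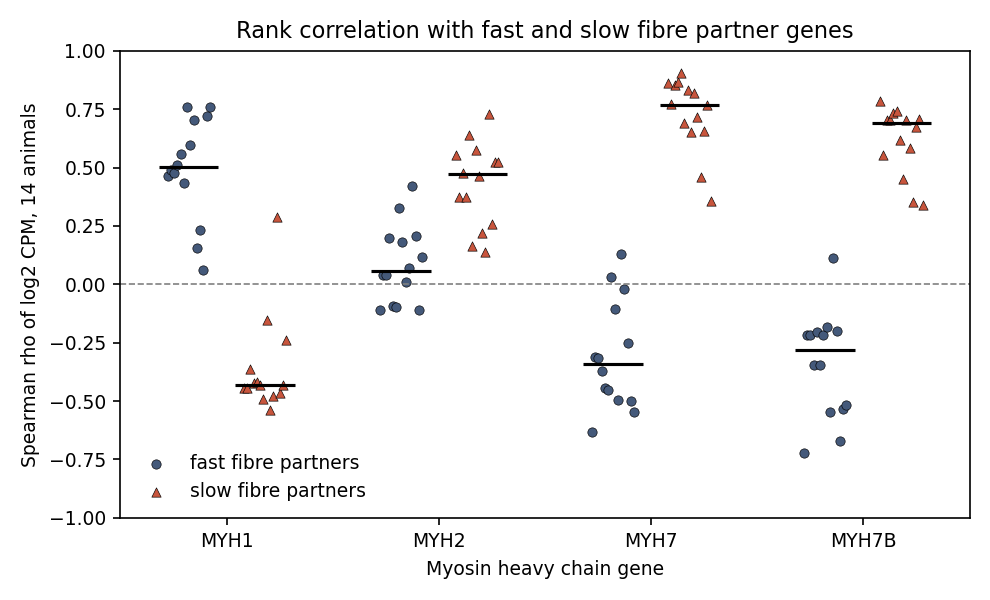
Spearman's rho over 14 animals between each myosin gene on the x axis and 14 fast fibre partners (circles) or 14 slow fibre partners (triangles), with a line at each median. For MYH7 the slow partners have a median of 0.769 and the fast ones -0.343, and for MYH1 the fast partners have a median of 0.501 and the slow ones -0.433.

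The genes whose pattern was most like each member, among 6491 others with a symbol and a mean above 10 CPM, were named by rho alone. For MYH7 they were TMEM131, TNNI1, the slow inhibitory troponin, and COQ8A, a kinase-like protein of coenzyme Q synthesis, each at rho = 0.903. For MYH7B they were GJA4 (0.881), a gap junction protein, LMOD2 (0.855), a leiomodin of thin filament length, and CDCA7L (0.820). For MYH1 they were PPP3R1 (0.912), the regulatory subunit of calcineurin, ZHX2 (0.886) and INO80 (0.855). For MYH2 they were PKIA (0.930), an inhibitor of protein kinase A, SLC25A3 (0.837), the mitochondrial phosphate carrier, and TRPT1 (0.798). For MYH8 they were LRRC8A (0.890), a volume-regulated anion channel subunit, CASQ2 (0.833), the slow and cardiac calsequestrin, and BRD1 (0.833). For the clustered genes, whose ranks run across both clusters, the names were JSP.1 (0.873), PHOSPHO1 (0.824) and KCTD11 (0.785) for MYH4, and RHOC (0.776), EIF2B1 (0.767) and SERINC3 (0.750) for MYH3. These are descriptions over 14 animals, with no test.

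The partner lists themselves held no gene past the threshold between diets by edgeR. Of 14 fast partners, 12 had a positive log2 fold change, with a median of 0.09, and MYL1, the fast essential light chain, was the 1 gene with an unadjusted p under 0.05 (0.0498 by edgeR, adjusted 1.0). The most abundant were TPM1, a tropomyosin, at 13046 ± 1608 CPM in the control group and 14378 ± 1762 CPM in the restricted group, and MYLPF, the fast regulatory light chain, at 13075 ± 1690 and 13962 ± 1546 CPM (SD, n = 7 each). Of 14 slow partners, 6 were positive, with a median of -0.03 and 0 at an unadjusted p under 0.05. The most abundant were the oxygen store MB, at 14253 ± 1966 and 16209 ± 2732 CPM, and MYBPC1, the slow myosin binding protein, at 12000 ± 1682 and 12864 ± 2001 CPM.

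Of 26 regulators of fibre type, 10 were positive with a median of -0.04, and 2, MEF2C and TBX15, had an unadjusted p under 0.05 (0.0495 and 0.0230 by edgeR, adjusted 1.0). MEF2C, a transcription factor of muscle genes, was at 164 ± 18.8 and 187 ± 20.6 CPM, and PPP3CA, the catalytic subunit of calcineurin, at 144 ± 12.2 and 156 ± 7.53 CPM (SD, n = 7 each). Of 9 chaperones and handlers of myosin, 5 were positive with a median of 0.06. HSPA8 was at 1200 ± 199 and 1188 ± 203 CPM, and HSP90AA1 at 888 ± 88.9 and 923 ± 58.4 CPM. Of the 6 tested genes for other myosin heavy chains, 0 were positive, with a median of -0.15, and the nonmuscle chains MYH14 and MYH9 had ratios of 0.911 (0.792 to 1.05) and 0.998 (0.860 to 1.16). Over all tested genes, 6061 of 12187 were positive.

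Markers of other cells in the sample were present in all libraries. Fibroblast markers (COL3A1 and DCN the highest) summed to 392 to 1008 CPM in the control group and 459 to 1150 CPM in the restricted group, endothelial markers (VWF, CDH5) to 156 to 265 and 163 to 226 CPM, and smooth muscle and pericyte markers (RGS5, ACTA2) to 186 to 284 and 188 to 255 CPM. Adipocyte markers (LPL, FABP4) summed to 191 to 299 and 130 to 358 CPM, macrophage markers (MRC1, CSF1R) to 11.2 to 22.9 and 12.3 to 29.3 CPM, T cell markers (PTPRC, CD3E) to 2.88 to 10.7 and 4.14 to 13.5 CPM, and nerve and Schwann cell markers (S100B, NCAM1) to 51.2 to 78.1 and 47.0 to 74.8 CPM. LPL was the largest part of the adipocyte sum, at 75.7 to 180 CPM over all animals. FABP4 ran from 2.92 to 69.2 CPM and ADIPOQ from 1.07 to 21.2 CPM. The ranges of the 2 diets overlapped for each of these lists, and 0 of their genes passed between diets by edgeR. Several marker lists of 6 or more tested genes ranked to 1 side with a member over the 14 animals, where 49.2% to 50.9% of all tested genes had a positive rho. Fibroblast markers were positive with MYH4 for 7 of 7 (median 0.371) and with MYH2, MYH7 and MYH7B for 0 of 7 (medians -0.477, -0.354 and -0.235). Endothelial markers were positive with MYH7 and MYH7B for 6 of 6 (medians 0.365 and 0.363) and with MYH1 for 0 of 6 (median -0.178). Adipocyte markers were positive with MYH1, MYH4 and MYH3 for 0 of 8 (medians -0.367, -0.198 and -0.222), and macrophage markers with MYH2 and MYH7 for 0 of 6 (medians -0.204 and -0.253). Interferon response genes were positive with MYH1 for 15 of 15 (median 0.376) and with MYH7B for 0 of 15 (median -0.284). The part of these cells in the myosin levels was not tested. Only pairs of list and member that ranked to 1 side are named here. Genes of a list share libraries and can vary together, so they are not separate observations. The ranks of MYH3 and MYH4 run across both of their clusters.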

How the data were processed

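The deposited table holds unnormalized whole-number read counts for each gene and a gene length in bases. Per the submitters' processing notes, FastQC, HISAT2, featureCounts and edgeR were used with the build ARS-UCD1.2. Not given in the sources used here were their versions, the strand setting and the handling of multi-mapped reads. Per the labels' protocols, total RNA was treated with DNase and column purified.

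Counts were analysed with edgeR 4.0.16 in R 4.3.3. Genes were kept by filterByExpr (minimum count 10, minimum total 15) and scaling factors came from TMM. The diets were compared with the quasi-likelihood F test without covariates, with Benjamini-Hochberg adjustment over all 12187 tested genes and a threshold of 0.05. The standard error is the log2 fold change over the root of F. Replicate numbers follow sample order and pair nothing. DESeq2 1.42.0 and limma 3.58.1 (voom with sample quality weights) were alternatives. The fit was also run on simulated counts, drawn around the same scaled mean for all animals of a diet group. Those counts lacked separate levels like those of MYH3 and MYH4, so that run cannot judge the intervals of these genes. Correlations use log2 CPM with a prior count of 2 and 100000 permutations, or all permutations below 10 animals. A gene counted as clustered where a gap of at least 1 log2 left 2 or more animals on either side, a rule set after the values were seen.

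The genes named are the 7 members, the 2 most abundant genes of each fixed list, and the 3 genes closest to each member by rho. Exceptions are marked where they occur, apart from ADIPOQ, MYBPC3, MYH13 and MYH15, which were also named outside this rule. Members and lists were chosen with earlier results of these data known. The p-values measure the spread between animals. No library was a copy of another: in pairwise comparisons the chi-square per degree of freedom was at least 12.9.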

Additional observations from a re-analysis of the deposited data

Results flagged for a closer look

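A pair of values stood apart from the rest of their group by the gap between the extreme animal and its neighbour, out of 30 groups of 7 checked, where chance flags about 1 in 20. MYH2 was at 25060 CPM in restricted 3, with the next restricted animal at 16620 CPM and a gap of 0.696 of the whole range (limit 0.568). The MYH4 share was 0.976% in control 2, with the next control at 0.402% and a gap of 0.605 of the range. Control 2 also had the lowest MYH2 and MYH7 levels of all 14 animals, at 9061 and 7261 CPM.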

How the results depend on the processing

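The count of genes called between diets was 0 in the main fit and in 22 of 24 alternatives, and 0 in each fit without 1 animal. It was 1 with DESeq2 (MTSS1L, lower in restricted offspring) and 1 among titles ending in A (ENSBTAG00000025385, higher). No member was called in any alternative. The direction of the diet difference was the same throughout for MYH2, MYH3, MYH4 and MYH7B. For MYH1 it turned with library size scaling (log2 fold change -0.0131) and ran from -0.00637 to 0.0726 over the fits without 1 animal, turning without restricted 4. MYH7 ran from -0.166 to 0.0109 over these fits, turning without control 1, and MYH8 from -0.308 to 0.0819, turning without control 1, control 4, restricted 3, restricted 5 or restricted 7; limma's voom gave -0.511 for MYH8. MYH4 ran from 0.05 with limma's voom, used here with sample quality weights, to 2.33 among titles ending in A. MYH3 ran from 0.90 to 2.54. The count of correlated pairs, 1, became 0 within controls, 0 within restricted offspring and 0 without the 3 interferon-high libraries, and ran from 1 to 2 without 1 animal. The first 3 of these sets held only 7, 7 and 11 animals. In them the r of MYH7 with MYH7B was 0.880, 0.728 and 0.752, beside 0.799 over all animals. The r of MYH1 with MYH2, 0.237, became -0.0937 with library size scaling and -0.0114 within restricted offspring. That of MYH2 with MYH8, -0.378, became 0.0435 within controls and ran from -0.490 to 0.0173 without 1 animal. That of MYH7B with MYH8, 0.296, became -0.236 within restricted offspring. The causes of these changes were not tested. Mean shares moved by less than 1 SD between animals in 116 of 116 alternatives. Most of these only left out some of the same animals, which can hardly move a mean that far, so the count does not measure stability. Among titles ending in A the mean share fell from 0.271% to 0.129% for MYH4 and from 0.0396% to 0.0254% for MYH3. No paired analysis was possible because the replicate numbers follow sample order and pair nothing. Depth limits the scarce genes most: MYH3 rested on 83 to 1287 reads per animal.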

Other observations

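MYH6, the fast atrial myosin that neighbours MYH7 and is not a member of the set, also fell into separate levels; it was chosen after its values were seen. It was at 112 to 259 CPM in control 3, control 4, control 5, control 6, restricted 2 and restricted 4, and at 8.49 to 28.8 CPM in the other 8 animals. Its reads came to 2.99% of those of MYH7 in restricted 4 and 0.105% in control 7. Of the 6 high animals, 3 were also high in MYH3 and MYH4, and 3 were high in neither. Other cardiac markers were near the floor: MYBPC3 had 1 to 6 reads and TNNI3 8 to 50 reads per animal. MYH13, the extraocular myosin, had 21 to 71 reads and MYH15 1 to 27 reads per animal.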
